A study of Zea mays with 18 samples.

Results

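The step from the meristem to the elongation zone was examined in the growing leaf of maize seedlings that were not chilled. Maize leaves grow from the base, where cells divide in the meristem; the cells then leave this region and enlarge in the elongation zone above it. The comparison took every microRNA (miRNA) of the processed table and subtracted its average log2 signal in the control meristem from that in the control elongation zone. The table lists 228 maize miRNA probe sets of 28 families. Probe sets with the same value in all 6 group averages were counted once, which gave 147 distinct profiles, all of which entered the comparison. Near-identical relatives share a profile and are named together (miR396c/d, for example).

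The seedlings were of the hybrid ADA313, and leaf 4 was sampled. Controls had 16 h days at 25 °C and 8 h nights at 20 °C, with 15000 lux and 70% relative humidity, and 3 arrays were made for each zone. Of the 18 arrays of the series, 6 belong to this comparison, and 6 more, from the same zones of seedlings with nights at 4 °C, serve as a second set for the same step. The labels call the 3 arrays of a group biological replicates; they do not say whether a replicate pooled seedlings, whether the zones of one number came from the same plants, or where a zone was cut. The table holds miRNAs and no messenger RNA, so the zones could not be checked against marker genes of dividing or expanding cells and are named as labelled.

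A plant miRNA is cut from a hairpin precursor as a duplex of a 5p and a 3p arm. One arm, the guide, is usually loaded into an Argonaute protein and directs the cleavage or translational repression of nearly complementary messenger RNAs, while the other, the passenger arm, is usually the rarer one. Many conserved families act on transcription factors that set the balance of division and expansion in leaves, among them growth-regulating factors (miR396), TCP factors (miR319), class III HD-ZIP factors (miR166) and auxin response factors (miR160, miR167).

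Levels are given as the authors' average log2 signal of 3 arrays, in which 1 unit is a 2-fold difference. They compare 1 miRNA between zones; a probe set's own binding strength enters them, so they do not rank different miRNAs by abundance. A difference carries the standard error (SE) recovered from the authors' analysis of variance and the adjusted p of limma's moderated test, over the 147 profiles. "Rose" and "fell" are used from meristem to elongation zone for an adjusted p under 0.05. The averages ran from 0.87 to 12.55 in the meristem (median 3.33) and from 0.92 to 12.52 in the elongation zone (median 3.44). An average at or under 2 is called background here, a level chosen for this comparison since the table gives no detection call; 58 profiles were at or under it in the meristem, 54 in the elongation zone and 52 in both. In whole tissue, fewer cells of a type that holds a miRNA and less of it per cell cannot be told apart.

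Profiles moved in both directions at this step, in the growth-linked families and in others. Of the 68 growth-linked profiles, 22.1% rose and 17.6% fell, beside 23.8% and 11.6% of all profiles. The growth-regulating-factor miRNAs miR396c/d, the auxin-linked miR167 guides, the copper-linked miR408 and the passenger arm miR399f-5p rose by 2.95 to 7.61 log2 units. The TCP-targeting miR319, most miR166 5p arms, miR529-5p, miR1432-5p and miR172e fell by 1.43 to 4.88. In all, 52 of 147 profiles passed (35.4%), 35 of them higher in the elongation zone (23.8% of all) and 17 lower (11.6%). Without adjustment, 62 had a p under 0.05. The median difference over all profiles was 0.05, with 86 above 0, 58 below and 3 at 0. Differences of at least 1 unit in size were seen for 49 profiles, 30 upward and 19 downward, and 44 of these 49 passed.

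How the arrays are put on one scale changed the split. Quantile normalization of the averages lowered the differences by a median of 0.13 and gave 20 profiles higher and 18 lower. Subtraction of each group's median lowered them by 0.11 and gave 21 and 20. Subtraction of the median of the 49 profiles above background in all 6 groups lowered them by 0.68 and gave 12 higher and 77 lower. The higher share of the calls was thus 67.3% as deposited and 52.6%, 51.2% and 13.5% under these scalings. Of the profiles that did not pass as deposited, 13 were followed singly under each scaling. Of these, that last scaling called lower miR159c/d-3p, miR166j/k/n-3p, miR171d/e/i/j-3p, miR390a/b-5p, miR397a-3p, miR482-5p, miR528a/b-5p, miR827-5p and miR2118f. The list is not complete: others, such as miR166l/m-3p, were not followed singly, though the same shift applied to them. Of the 52 profiles called, 24 kept call and direction under all 3 scalings, and 20 under every alternative run on them. Those 20 were, upward, miR396c/d, miR399f-5p, both miR408 profiles, both miR167 5p profiles, miR167d-3p, miR156l-3p, miR166h-5p and miR393a-3p. Downward they were miR319a/b/c/d-3p, miR166n-5p, miR166k-5p, miR166m-5p, miR166c-5p, miR166a-5p, miR1432-5p, miR172e, miR160d-3p and miR160b/g-3p.

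**Figure D1:**
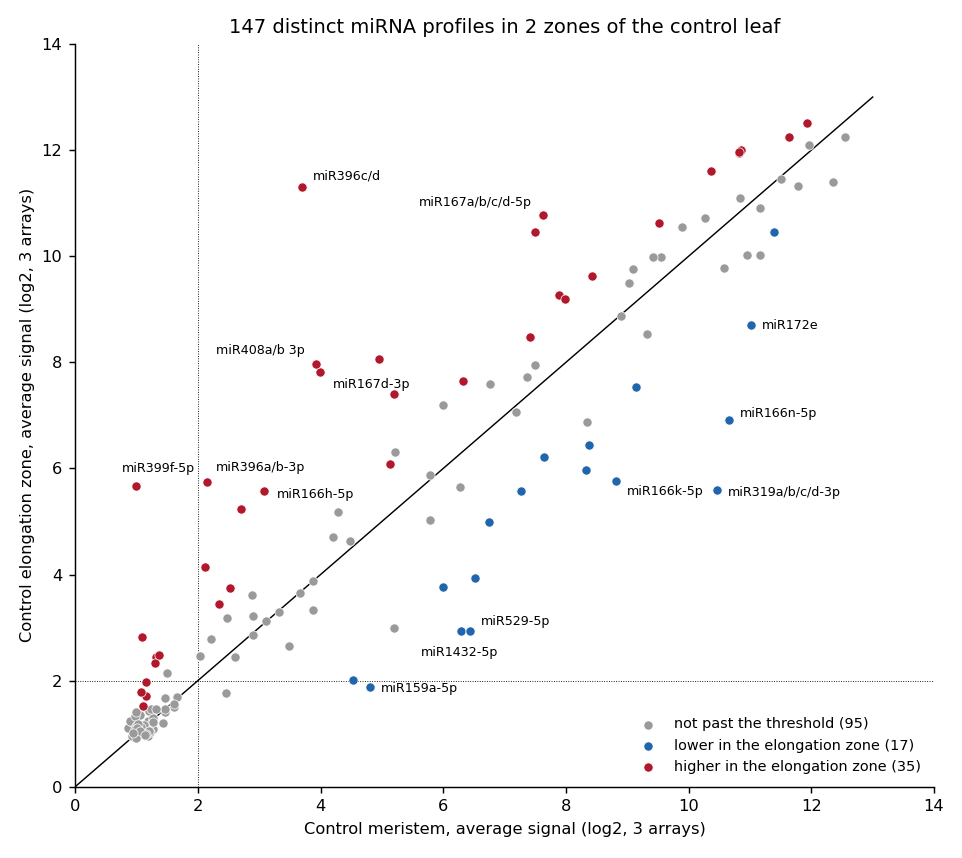
Average log2 signal of each of the 147 distinct miRNA profiles in the control meristem (horizontal) and the control elongation zone (vertical), 3 arrays each; the solid line marks equal levels, the dotted lines the background level of 2, and colours mark the limma call. miR396c/d stands farthest above the line, at 3.70 and 11.31, and miR319a/b/c/d-3p farthest below it, at 10.47 and 5.59.

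Among the regulators of division and expansion, miR396 had the widest spread within a family. Its 5p guides target growth-regulating factors, which promote cell division in leaves. The miR396c/d signal was 3.70 in the meristem and 11.31 in the elongation zone (difference 7.61, SE 0.59, adjusted p = 3.32e-07). The miR396a/b hairpins gave 2.15 and 5.74 for the 3p arm (3.59, SE 0.98, adjusted p = 0.0128) and 1.36 and 2.48 for the 5p arm (1.12, SE 0.28, adjusted p = 0.00747). The profile of miR396g-5p and miR396h rose by 0.82 but ended at 1.97, under the background level. In contrast, the passenger arm miR396e-3p was high in both zones, at 10.84 and 11.09 (0.25, 95% interval from -0.33 to 0.83). The 5p profile of that hairpin, miR396e/f-5p, was at background (0.90 and 1.24), and neither it nor miR396g-3p passed. In all, 4 of 7 miR396 profiles rose, against 23.8% of all profiles, and none fell. The miR396a/b calls were lost with quantile normalization, and that of miR396a/b-5p also with subtraction of the median of the profiles above background.

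The miR319 family, whose targets are TCP factors that restrain proliferation at leaf margins in Arabidopsis, moved the other way. Its 1 profile, miR319a/b/c/d-3p, was 10.47 in the meristem and 5.59 in the elongation zone (-4.88, SE 0.73, adjusted p = 0.000147), the largest fall of the comparison. The related miR159 family, which targets GAMYB factors, had its highest signal in miR159c/d-3p, at 12.55 and 12.24 (-0.31, SE 0.14, adjusted p = 0.106). It was called lower with subtraction of the group median (-0.42, adjusted p = 0.0364) and of the median of the profiles above background (-0.99, adjusted p = 5.95e-05). Of its 7 profiles 2 fell (28.6%, beside 11.6% of all profiles). The guide profile miR159h/i-3p went from 11.39 to 10.46 (-0.93, SE 0.25, adjusted p = 0.0113), and the passenger arm miR159a-5p from 4.81 to 1.89, within the background range (-2.92, SE 0.92, adjusted p = 0.029). The remaining guide profiles, miR159e-3p (-0.77, 95% interval from -1.74 to 0.20) and miR159g-3p (-0.63, from -1.99 to 0.73), did not pass. The call of miR159a-5p was lost with quantile normalization, and both miR159 calls with Tukey's test.

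The miR166 family had its calls on 5p arms, while the differences of its 3p arms were also below 0. The 3p arm is the guide and targets class III HD-ZIP factors such as rolled leaf1 of maize, which mark the upper side of the leaf. None of its 4 guide profiles passed: miR166j/k/n-3p stood at 12.35 and 11.39 (-0.96, adjusted p = 0.0954) and miR166l/m-3p at 11.16 and 10.03 (-1.13, adjusted p = 0.155). The other guides, miR166a-3p (10.95 and 10.03) and the 8-member profile with miR166b-3p (10.57 and 9.78), differed by -0.92 and -0.79. All 4 values were below 0. The 95% interval of miR166j/k/n-3p, not adjusted for the number of profiles, ran from -1.86 to -0.06. Those of the other guides included 0 and reached from -2.37 to 0.44. With subtraction of the median of the profiles above background, miR166j/k/n-3p was called lower (-1.64, adjusted p = 0.00436). The other guides were not followed singly under the scalings.

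Of the 11 miR166 5p profiles, the passenger arms, 6 fell (54.5%) and 1 rose (9.09%), beside 11.6% and 23.8% of all profiles. The levels that fell were spread widely in the meristem, from 4.53 to 10.66. miR166n-5p stood at 10.66 and 6.91 (-3.75, SE 0.25, adjusted p = 1.2e-07) and miR166k-5p at 8.82 and 5.77 (-3.05, SE 0.32, adjusted p = 8.54e-06). Smaller falls were seen for miR166m-5p, with 8.33 and 5.97 (-2.36, SE 0.26), for miR166c-5p, with 8.37 and 6.45 (-1.92), and for miR166a-5p, with 7.64 and 6.21 (-1.43, SE 0.24). miR166j-5p, the lowest of them, fell from 4.53 to 2.01 (-2.52, SE 0.58, adjusted p = 0.00374). Against these, miR166h-5p rose, with 3.08 in the meristem and 5.57 in the elongation zone (2.49, SE 0.36, adjusted p = 0.000117). Of the 4 that did not pass, miR166b/d-5p kept a high signal (11.17 and 10.91, -0.26, 95% interval from -1.29 to 0.77) and miR166g-5p stood at 6.77 and 7.59 (0.82, from -0.22 to 1.86). Whether 5p and 3p arms differed from each other was not tested, because the arms are measured on the same arrays and the averages do not give their covariance.

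The auxin-linked families included both risers and fallers. miR167, whose 5p guides target activating auxin response factors, rose in 5 of 8 profiles (62.5%, beside 23.8% of all profiles) and fell in none. Its guide profiles were miR167e/f/g/h/i/j-5p, at 7.50 and 10.45 (2.95, SE 0.33, adjusted p = 1.16e-05), and miR167a/b/c/d-5p, at 7.62 and 10.78 (3.16, SE 0.52, adjusted p = 0.000319). Of the 6 profiles of the 3p arm, miR167d-3p had levels of 3.99 and 7.82 (3.83, SE 0.65, adjusted p = 0.000377), and miR167e-3p, at background in the meristem (1.09), reached 2.83 (1.74, SE 0.42, adjusted p = 0.00525). miR167h/i-3p rose by 0.41 within the background range, a direction that turned to -0.27 with subtraction of the median of the profiles above background. The other 3p arms, of miR167c, miR167f and miR167g, stayed between 1.05 and 1.61 in both zones and did not pass.

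miR160 targets repressive auxin response factors through its 5p arm. The table lists it by 3p arms, in 5 profiles, of which 3 fell (60%) and 1 rose (20%), beside 11.6% and 23.8% of all profiles. miR160c-3p fell from 6.52 to 3.94 (-2.58, SE 0.89, adjusted p = 0.0384), miR160d-3p from 7.27 to 5.58 (-1.69, SE 0.33, adjusted p = 0.00113) and miR160b/g-3p from 9.15 to 7.54 (-1.61, SE 0.34, adjusted p = 0.00238). In the opposite direction, miR160f-3p rose from 8.42 to 9.63 (1.21, SE 0.23, adjusted p = 0.00097). miR160a-3p, at 8.34 and 6.88, lay just outside the threshold (-1.46, SE 0.59, adjusted p = 0.0755). The call of miR160c-3p was lost with quantile normalization and without moderation, and that of miR160f-3p with subtraction of the median of the profiles above background (adjusted p = 0.0591).

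miR393, which targets the auxin receptors of the TIR1 type, had differences of 1.20 to 1.39 in both arms. Of its 4 profiles 3 rose (75%, beside 23.8% of all profiles). miR393a-3p stood at 7.88 and 9.27 (1.39, SE 0.28, adjusted p = 0.00173), miR393c-3p at 7.98 and 9.19 (1.21, SE 0.27, adjusted p = 0.00342) and the shared guide miR393a/c-5p at 6.33 and 7.64 (1.31, SE 0.47, adjusted p = 0.0433), the call nearest the threshold. The guide miR393b-5p, at 5.99 and 7.19, did not pass (1.20, SE 0.55, adjusted p = 0.108). The call of miR393a/c-5p was lost with subtraction of the group median (adjusted p = 0.0631) and without moderation, and both it and that of miR393c-3p with subtraction of the median of the profiles above background. miR390-5p, which triggers the TAS3 small RNAs that act on auxin response factors, was 11.50 and 11.45 (-0.05, 95% interval from -0.50 to 0.40), and its passenger arm 9.32 and 8.53 (-0.79, adjusted p = 0.211). Neither arm of miR394, which targets an F-box gene in Arabidopsis, passed; the guide miR394a/b-5p stood at 5.78 and 5.87 with an interval as wide as from -1.97 to 2.15. Over the 21 auxin-linked profiles, 9 rose, 3 fell and 9 did not pass, with a median difference of 0.30 beside 0.05 for all profiles. The shares were 42.9% higher and 14.3% lower, beside 23.8% and 11.6% of all profiles.

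The families of phase change and of leaf shape also separated. miR156 and miR529 both target SPL factors. The 10-member guide profile of miR156 (miR156a/b/d/e/f/g/h/i/l-5p with miR156c), 11.93 in the meristem, was 12.52 in the elongation zone, the highest signal there (0.59, SE 0.19, adjusted p = 0.0318). miR156k-5p rose from 11.64 to 12.24 (0.60, SE 0.20, adjusted p = 0.037), and miR156j-5p, at 9.89 and 10.56, was the nearest profile outside the threshold (0.67, adjusted p = 0.0581). The 10-member profile and miR156k-5p differed by -0.09 and -0.08 with subtraction of the median of the profiles above background. Both calls were also lost with subtraction of the group median and with Tukey's test. That of miR156k-5p was lost with quantile normalization as well. Passenger arms of the same family rose further from low levels: miR156l-3p from 2.70 to 5.24 (2.54, SE 0.52, adjusted p = 0.00188), miR156e-3p from 2.11 to 4.15 (2.04, SE 0.59, adjusted p = 0.017) and miR156i-3p from 1.32 to 2.44 (1.12, SE 0.25, adjusted p = 0.00323). The calls of miR156e-3p and miR156i-3p were lost with quantile normalization and with subtraction of the median of the profiles above background. The 3p arms of miR156h and miR156j stayed at background. miR529-5p, in contrast, fell from 6.44 to 2.94 (-3.50, SE 1.14, adjusted p = 0.0318), with a call that was lost with quantile normalization, without moderation and with Tukey's test.

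miR172 targets AP2-type factors, among them glossy15, which keeps the traits of juvenile leaves in maize. Of its 3 profiles 2 fell (66.7%, beside 11.6% of all profiles). miR172e went from 11.01 to 8.70 (-2.31, SE 0.30, adjusted p = 5.47e-05), and the profile of miR172a with miR172b/c/d-3p was 6.74 in the meristem and lower above it (-1.74, SE 0.59, adjusted p = 0.0381, lost without moderation). The passenger arm miR172c-5p, at 5.19 and 2.99, had the largest difference that did not pass (-2.20, SE 1.08, adjusted p = 0.141). miR164, which targets NAC factors of organ boundaries, was higher in the elongation zone in all 4 of its guide profiles, by 1.12 to 1.24. Of all profiles 23.8% rose. miR164e-5p stood at 10.37 and 11.61 (SE 0.43, adjusted p = 0.0383), and the other guides, from 10.82 to 10.85 in the meristem, reached at least 11.94. These 4 profiles differ little in level and in SE (0.39 to 0.43). All 4 calls were lost with subtraction of the group median or of the median of the profiles above background. They were also lost without moderation and with Tukey's test. Of the passenger arms, all at background, miR164b-3p passed (0.71) and 3 did not. The call of miR164b-3p was lost under each of the 3 scalings, without moderation and with Tukey's test, and its deposited FDR p-value was 0.0651.

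None of the 17 profiles of miR171, whose guides target GRAS factors of the HAM type, passed under limma, at an unadjusted p under 0.05 for 1 of them (miR171c-3p, 9.42 and 9.98). The highest, miR171d/e/i/j-3p, stood at 11.96 and 12.09 (0.13, 95% interval from -0.23 to 0.49). Its passenger arm miR171d/e-5p had averages of 7.18 and 7.06 and the largest recovered SD of all profiles (1.84), so that its interval ran from -3.14 to 2.90. The other miR171 5p arms were at background in both zones. Over all 68 profiles of the growth-linked families (miR156, miR159, miR164, miR166, miR171, miR172, miR319, miR396 and miR529), 15 rose (22.1%), 12 fell (17.6%) and 41 did not pass, beside 23.8% and 11.6% of all profiles, with a median difference of 0.03.

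**Figure D2:**
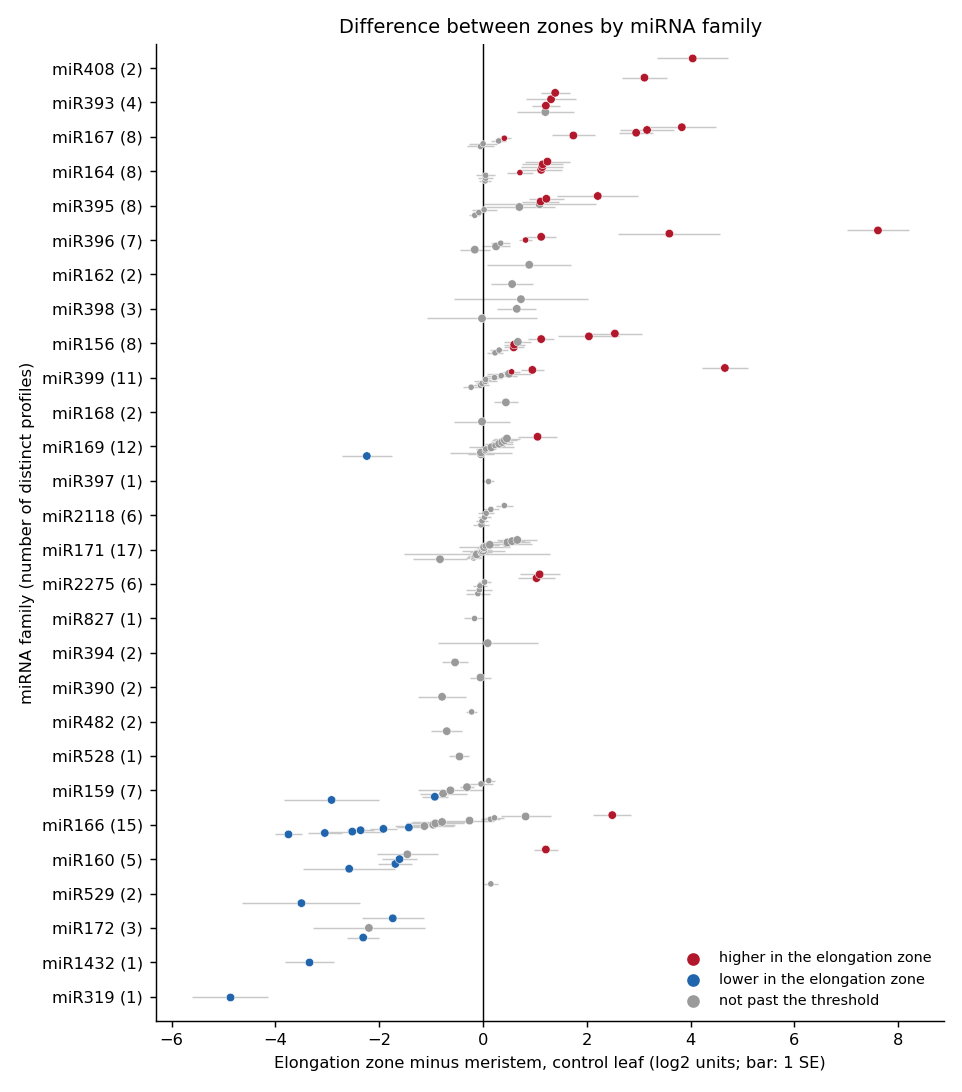
Difference between the control elongation zone and the control meristem (log2 units, 3 arrays per zone) for each of the 147 profiles, by family, ordered by the family's median; bars are 1 recovered SE, colours mark the limma call, and small points were at or under background in both zones. Both miR408 profiles and no miR319, miR172 or miR1432 profile lie to the right of 0, while miR166, miR160 and miR169 hold calls on both sides.

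Families that answer to nutrient supply had upward calls alone on the deposited scale, on which 11.6% of all profiles fell. miR408, whose 3p arm targets plantacyanin and laccase transcripts of copper proteins, rose in both arms. The profile of miR408a and miR408b-3p stood at 3.92 and 7.96 (4.04, SE 0.69, adjusted p = 0.000377) and miR408b-5p at 4.95 and 8.06 (3.11, SE 0.44, adjusted p = 8.91e-05). No other copper-linked profile passed on the deposited scale. miR528a/b-5p, a grass miRNA with copper protein targets, was 11.79 and 11.33 (-0.46, SE 0.19, adjusted p = 0.082), and was called lower under each of the 3 scalings (-0.57 with the group median, -0.72 with quantile normalization and -1.14 with the median of the profiles above background). The 3 miR398 profiles, whose guide targets copper/zinc superoxide dismutase, differed by -0.02 to 0.73 and did not pass. miR397a-3p, of a family that targets laccases, was at background. Of these 7 profiles 2 rose (28.6%, near the 23.8% of all profiles).

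In miR395, which targets ATP sulfurylases and a sulfate transporter, the 3p guides rose and the 5p arms did not pass. The 11-member guide profile (miR395a/b/d/e/f/g/h/i/j/n/p-3p) went from 9.51 to 10.62 (1.11, SE 0.35, adjusted p = 0.0292), miR395o-3p from 2.53 to 3.75 (1.22, SE 0.34, adjusted p = 0.014) and miR395c/l/m-3p from 5.20 to 7.41 (2.21, SE 0.78, adjusted p = 0.0392). Of the 5 passenger arms, 3 were at background in both zones, and miR395i-5p (5.22 and 6.31) and miR395b-5p (2.48 and 3.18) had SEs of 1.08 and 0.69 beside differences of 1.09 and 0.70. All 3 guide calls were lost with subtraction of the median of the profiles above background and with Tukey's test. That of miR395o-3p was also lost with quantile normalization. That of miR395c/l/m-3p was lost under each of the 3 scalings and without moderation, and its deposited FDR p-value was 0.0757.

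miR399 targets PHO2, a brake on phosphate uptake, through its 3p arm. Its guide miR399a/c/h-3p stood at 5.13 and 6.08 (0.95, SE 0.21, adjusted p = 0.00342), a call lost with subtraction of the median of the profiles above background (0.27), and miR399d-3p, at 4.20 and 4.70, did not pass. The passenger arm miR399f-5p, at background in the meristem (1.00), reached 5.66 in the elongation zone (4.66, SE 0.45, adjusted p = 3.11e-06). Its difference starts from under the background level, so its size is not ranked against those of other profiles. The guide arm of that hairpin, miR399f-3p, was 1.16 and 1.71, within the background range (0.55, SE 0.16, adjusted p = 0.0177, and -0.13 with subtraction of the median of the profiles above background). The other miR399 profiles and miR827-5p, of a phosphate-linked family, were at background and did not pass. Of the 20 sulfate- and phosphate-linked profiles, 6 rose (30%, beside 23.8% of all profiles) and 14 did not pass, with 12 at background in both zones.

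Among the other families, miR1432-5p, which targets an acyl-CoA thioesterase gene in rice, fell from 6.29 to 2.94 (-3.35, SE 0.47, adjusted p = 8.91e-05). miR169, which targets NF-YA factors, had 1 call in each direction in 12 profiles, both on 3p arms. These were 8.33% each way, beside 23.8% higher and 11.6% lower of all profiles. miR169a/b-3p fell to 3.76 in the elongation zone (-2.24, SE 0.48, adjusted p = 0.00256), and miR169i/j/k-3p rose from 7.42 to 8.47 (1.05, SE 0.37, adjusted p = 0.0392), a rise that was no longer called under any of the 3 scalings. The guide miR169l-5p, at 7.36 and 7.73, differed by 0.37 (95% interval from -0.09 to 0.83).

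No profile of the families linked to the small RNA machinery passed. miR168 targets Argonaute 1 through its 5p arm, which is not analysed here. Its passenger arms stood at 9.55 and 9.99 for miR168a-3p (0.44, 95% interval from -0.04 to 0.92) and at 8.89 and 8.87 for miR168b-3p. miR162, which targets Dicer-like 1, gave 4.29 and 5.18 for its 5p arm (0.89, from -0.84 to 2.62) and 2.22 and 2.78 for its 3p arm. Of the triggers of phased small RNAs, which are known from grass anthers, the 6 miR2118 profiles were at background in both zones. The passenger arms miR2275a-5p (2.35 and 3.44, 1.09, SE 0.38, adjusted p = 0.0392) and miR2275b-5p (1.30 and 2.33, 1.03, SE 0.35, adjusted p = 0.0371) rose at low level, while the 3p guides of miR2275 stayed between 0.94 and 1.08. Both miR2275 calls were lost under each of the 3 scalings.

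The arms of a hairpin were then set side by side. Both arms are listed for 71 hairpins, which form 65 distinct pairs of profiles; pairs that share a profile are not independent. In 12 pairs both arms rose, and in 27 neither passed. In 11 pairs the 5p arm rose and the 3p arm did not pass, in 7 pairs the reverse. The 5p arm fell alone in 7 pairs, 6 of them of miR166 and the other of miR529, and the 3p arm fell alone in 1, of miR172c. Over all profiles of 5p arms, 22.2% rose and 14.3% fell, and over those of 3p arms 24.6% and 8.7%. In no pair did the arms pass in opposite directions, by limma. The miR166h hairpin came nearest, with 2.49 for the 5p arm and -0.79, not passed, for the shared 3p profile. No pair fell together. In the 6 pairs of miR166 whose 5p arm fell, the 3p arm differed by -1.13 to -0.79 and did not pass. In that of miR529 the 3p arm differed by 0.15. Of the 3p profiles that fell, only that with miR172c-3p has a listed 5p partner, which differed by -2.20 and did not pass. The other 3p profiles that fell could not show a joint fall.

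**Figure D3:**
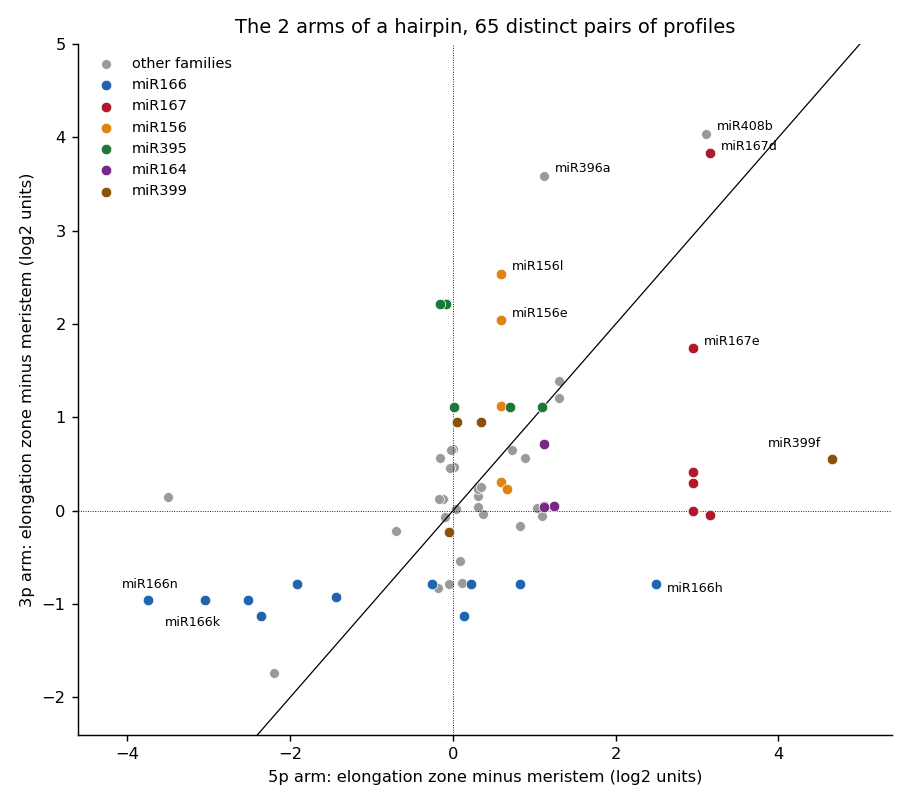
Difference between control elongation zone and control meristem for the 5p arm (horizontal) and the 3p arm (vertical) of each of 65 distinct pairs of profiles (log2 units, 3 arrays per zone); the solid line marks equal differences, and colours mark 6 families. miR408b (3.11 and 4.04) rose in both arms, while miR166n (-3.75 and -0.96) and miR399f (4.66 and 0.55) lie far from the line.

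Some of these hairpins are neighbours in the maize genome. RefSeq's gene table for the assembly Zm-B73-REFERENCE-NAM-5.0 holds 150 of the 157 miRNA genes named by the array table, and 20 pairs of them have no other annotated gene between them. The order is that of the inbred B73, not of the hybrid sampled. Several of the values below belong to profiles shared with other hairpins, so they cannot be placed at a single locus. Of the neighbours whose arms lie in different profiles, miR166k and miR166m both had a 5p arm that fell (-3.05 and -2.36). For miR2275a and miR2275b a 5p arm rose (1.09 and 1.03), and miR159a-5p and the shared profile miR159h/i-3p both fell (-2.92 and -0.93). Next to miR396a, whose shared profile miR396a/b-3p rose by 3.59, lies miR396e. Its profiles miR396e-3p (0.25) and the shared miR396e/f-5p (0.34) did not pass. Calls also differed between the profiles of miR399a (shared miR399a/c/h-3p, 0.95, rose) and miR399g (-0.23 and -0.05, not passed). The same held for miR169i (shared miR169i/j/k-3p, 1.05, rose) and miR169d (-0.04, not passed). It held as well for miR396f (shared miR396e/f-5p, 0.34, not passed) and miR396g (5p profile shared with miR396h, 0.82, rose). The shared profiles of miR396b and of its neighbour miR396h rose, the latter within the background range. Neither miR2118b nor miR2118d passed. Of the 20 pairs, 11 are of miR395, whose guides mostly share 1 profile.

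The same step was measured on separate arrays in seedlings with nights at 4 °C. In these, 66 of 147 profiles passed (44.9%), 44 higher (29.9%) and 22 lower (15%). All 35 control risers had a positive difference in the chilled leaf and 28 of them passed; all 17 control fallers had a negative one and 15 passed. None passed in the opposite direction. Over the 147 profiles the differences of the 2 steps had Pearson's r of 0.896 and Spearman's rho of 0.854, a description only, since both steps use the same probe sets and one table preselected by the authors. The 9 that passed in control leaves alone were miR160c-3p, miR529-5p, miR396a/b-3p, miR393a-3p, miR393c-3p, miR395c/l/m-3p, miR169i/j/k-3p, miR164b-3p and miR399f-3p. Another 23 passed in chilled leaves alone, 22 of them with the same sign in controls.

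Whether the step differed between control and chilled leaves was tested directly. Under limma 0 of 147 profiles passed (0.0%), with 16 at an unadjusted p under 0.05 and a smallest adjusted p of 0.27. Without moderation of the variance there were also 0, and with subtraction of the group median 5, miR396c/d among them (-3.49, adjusted p = 0.0394). The largest of these differences was that of miR396c/d, which rose by 7.61 in control and by 4.56 in chilled leaves (difference of the steps -3.05, SE 0.84, 95% interval from -4.84 to -1.26, unadjusted p = 0.00268). Its averages were 3.70 and 6.70 in the control and the chilled meristem, and 11.31 and 11.26 in the 2 elongation zones. miR1432-5p fell by 3.35 in control and by 1.33 in chilled leaves (2.02, SE 0.67, unadjusted p = 0.00918), with 6.29 and 4.40 in the meristems and 2.94 and 3.07 in the elongation zones. For miR156e-3p the rises were 2.04 in control and 4.08 in chilled leaves (2.04, SE 0.83, unadjusted p = 0.028), and for miR167e-3p 1.74 and 3.65 (1.91, SE 0.59, unadjusted p = 0.0062). As deposited none of these passed after adjustment, and a p that misses the threshold does not show that the steps are alike.

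**Figure D4:**
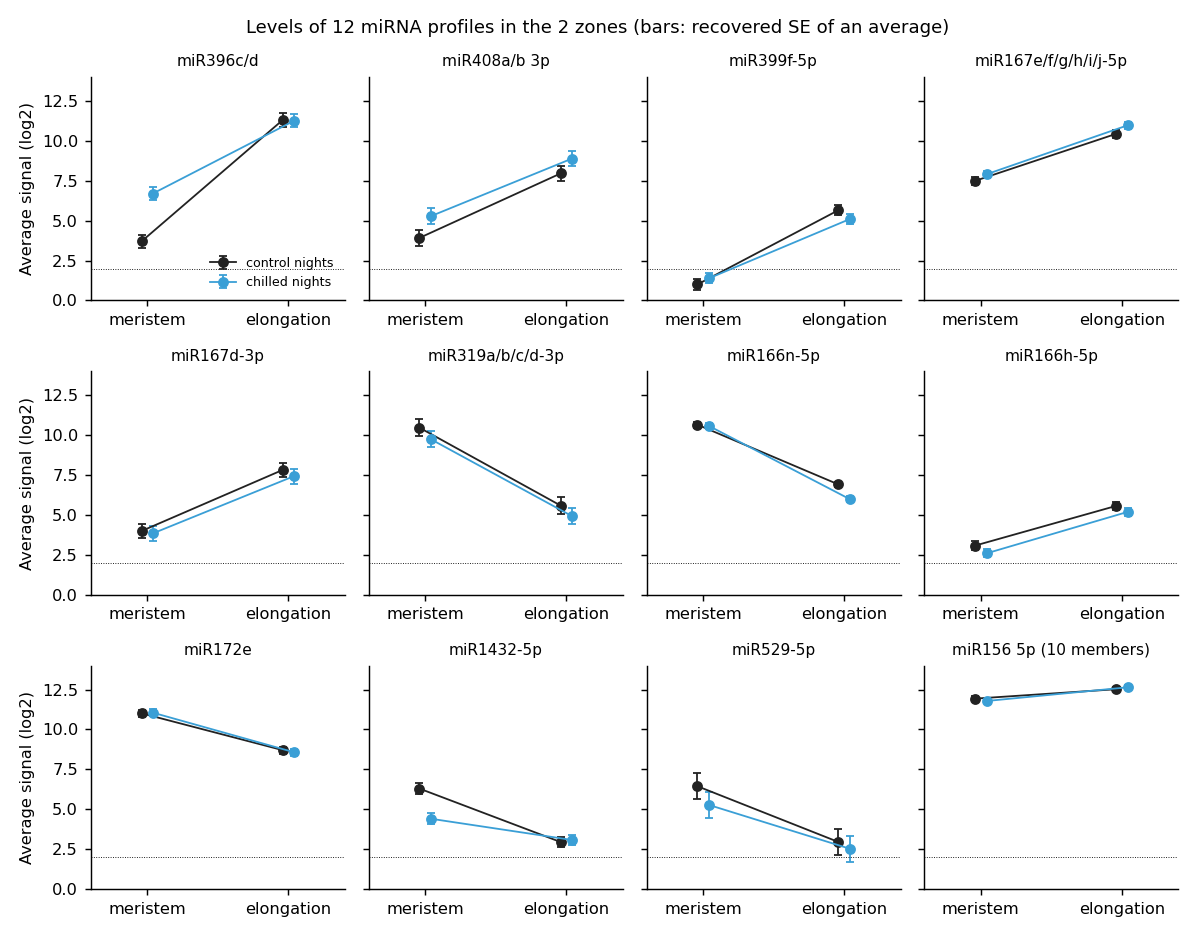
Average log2 signal of 12 miRNA profiles in the meristem and the elongation zone of control (black) and chilled (blue) leaves, 3 arrays per point; bars are the recovered SE of an average and the dotted line is the background level of 2. The meristem points of miR396c/d (3.70 and 6.70) and miR1432-5p (6.29 and 4.40) stand apart, and those of miR319a/b/c/d-3p (10.47 and 9.75) and miR172e (11.01 and 11.05) lie close.

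**Figure D5:**
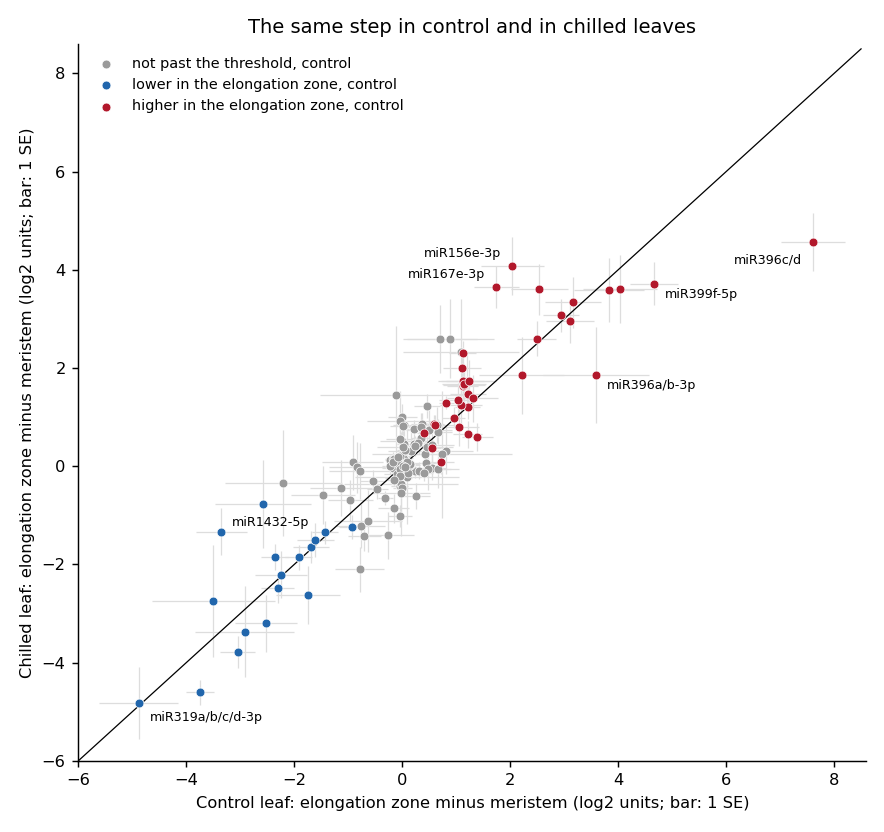
Difference between elongation zone and meristem of each of the 147 profiles in control (horizontal) and chilled (vertical) leaves, in log2 units with 1 SE, 3 arrays per group; the line marks equal differences and colours mark the call in control leaves. All 35 profiles that rose and all 17 that fell in controls have the same sign in chilled leaves, and miR396c/d (7.61 and 4.56) lies farthest below the line among the risers.

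Levels beyond the elongation zone are given for a few of the risers, from the control mature zone, also 3 arrays; this zone and the step above share the elongation arrays. miR167e/f/g/h/i/j-5p was 11.49 there, above its elongation level of 10.45 (1.04, SE 0.33). miR396c/d was 11.80 beside 11.31, a difference smaller than its SE (0.49, SE 0.59). miR167d-3p was 0.99 against 7.82 in the elongation zone, miR399f-5p 3.22 against 5.66, miR156l-3p 2.03 against 5.24, and miR160f-3p 7.01 against 9.63. These had the highest of their 3 control averages in the elongation zone.

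Calls were less frequent near background. Of the 52 profiles at or under 2 in both zones, 4 passed (7.69%), all upward and by at most 0.82. Of the 95 with a higher level in at least 1 zone, 48 passed. From background in the meristem, 6 profiles came above it in the elongation zone, 5 of them with a call: miR399f-5p, miR167e-3p, miR396a/b-5p, miR156i-3p and miR2275b-5p. In the other direction 2 dropped to background, miR159a-5p, with a call, and miR482-5p (2.46 and 1.76, adjusted p = 0.0888), of a family that targets disease resistance genes. Of the 95 profiles that did not pass, 61 had a 95% interval of the difference within 1 unit on either side of 0. For the other 34 a 2-fold difference is not excluded by these arrays. However, 48 of the 95 were at or under background in both zones. Differences of all profiles at background had an SD of 0.22, beside 1.9 above it. A narrow interval of the signal at background does not exclude a 2-fold difference in the miRNA.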

How the data were processed

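miRNA was measured on arrays in 6 groups of 3. Per the labels' protocols, Trizol was used to isolate total RNA, of which 10 µg was biotin-labelled with a FlashTag kit. The submitters' processing notes list Affymetrix Expression Console; the version, background correction and normalization are not given in the labels or file headers. The authors deposited 6 bi-weight averages per probe set in log2 units, beside an ANOVA p-value and its FDR p-value, per the file headers. These p-values end at 0.040982, so the table is preselected on arrays that include those compared here, and percentages of calls refer to it. Such a choice favours rows with a small spread beside their differences. The SEs and adjusted p-values were not corrected for it and may be too small. It holds no single array and no read depth; the number of arrays limits the precision.

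Each ANOVA p was turned back into F (5 and 12 degrees of freedom), which with the spread of the averages gives the residual SD (median 0.34, from 0.0692 to 1.84). The variances were moderated with squeezeVar of limma 3.58.1 in R 4.3.3 (prior degrees of freedom 1.776, total 13.78) over the 147 profiles, and contrasts were tested two-sided with Benjamini-Hochberg adjustment over all profiles. The recovery takes the ANOVA to be one-way with 1 spread for all groups, and p-values measure the spread between arrays. It also treats the bi-weight averages as ordinary means. The script was tested on simulated normal values with ordinary means, so the effect of bi-weight averaging was not tested. Profiles to name were drawn from the 12 largest rises and 12 largest falls, the profiles past the threshold in each family or else the family's highest, the 10 highest averages, the 2 profiles nearest the threshold on either side, and both arms of a hairpin where 1 was called; further profiles were added after their values were seen. The comparison, families and lists were chosen with earlier results of these data known.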

Additional observations from a re-analysis of the deposited data

How the results depend on the processing

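In the control step the count of 52 profiles was between 38 and 55 with adjustment over all probe sets, quantile normalization, median subtraction, no moderation, a trended robust prior, 10 residual degrees of freedom, an enlarged SD, a low-value filter, a deposited FDR p-value under 0.05 or an unadjusted p with a 2-fold minimum. It was 22 (12 higher, 10 lower) with the Tukey test, 29 (17 higher, 12 lower) with an adjusted p under 0.01, and 89 (12 higher, 77 lower) with median subtraction over profiles above background. Profiles higher numbered 20 with quantile normalization and 21 with median subtraction, against 35. In the chilled step, 44 higher and 22 lower became 28 higher with quantile normalization, 24 and 64 with median subtraction, 16 and 79 with median subtraction over profiles above background, and 43 in all, 26 higher, with the Tukey test. The difference between the steps gave 5 profiles, all 5 lower, with median subtraction and 6 (5 higher, 1 lower) at an unadjusted p with a 2-fold minimum, against 0. The scalings shift all differences by construction; what lies behind the shift was not tested.

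Directions turned, or the difference came to 0.00, in 13 of the 702 single values, all under a scaling. With quantile normalization they were miR168a-3p (0.00), miR398b-5p (0.00) and miR171d/e/i/j-3p (-0.14), with median subtraction miR394a/b-5p (-0.02) and miR397a-3p (-0.02). With median subtraction over profiles above background they were miR168a-3p (-0.24), miR167h/i-3p (-0.27), miR399f-3p (-0.13), miR394a/b-5p (-0.59), miR171d/e/i/j-3p (-0.55), the 10-member miR156 guide profile (-0.09), miR156k-5p (-0.08) and miR397a-3p (-0.59). Another 96 values kept direction and lost the call, 10 gained it, and 583 did neither. No paired analysis was possible because the table holds group averages and no single array, so the replicate number could not be used and no replicate could be left out.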
